A study of Mus musculus with 6 samples.

Results

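The genes described here are those of the unfolded protein response and of the chaperones and folding enzymes of the endoplasmic reticulum (ER), in microglia sorted from the lumbar spinal cord of SOD1 G93A and WT mice. They are 38 of the 18193 genes that the arrays measured. They were taken from a list of names, chosen with earlier results of these data known. Of the 38 names, 35 were found as written in the table that names probe sets. The other 3 were found through their Entrez gene, *Selk* as *Selenok*, *Ero1l* as *Ero1a* and *Ero1lb* as *Ero1b*. Where several probe sets map to a gene alone, the brightest by its mean over the 6 arrays was read.

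The ER is where secreted and membrane proteins are folded, and unfolded protein there is sensed by the membrane proteins PERK, IRE1 and ATF6. PERK phosphorylates the translation factor eIF2 alpha, which slows translation in general while the mRNA of the transcription factor ATF4 is translated more. IRE1 splices the mRNA of *Xbp1* so that an active transcription factor is made, and ATF6 is cut in the Golgi to release one. Their targets include chaperones, disulfide isomerases and the machinery of ER-associated degradation (ERAD), which sends misfolded proteins to the proteasome. Phosphorylation of eIF2 alpha, translation of ATF4 and cleavage of ATF6 leave no direct trace in a signal of mRNA level, and the splicing of *Xbp1* was not measured here. Microglia are the resident macrophages of the central nervous system and secrete cytokines, complement and lysosomal proteins that pass through the ER.

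The SOD1 G93A mice carried a high copy number of a human SOD1 transgene with a mutation found in familial amyotrophic lateral sclerosis, on a B6SJL background, and the WT mice were control littermates. All were males at 90 days of age (P90), an age the study calls early symptomatic. There were 3 whole-genome mouse Affymetrix arrays per genotype, each of a pool of sorted CD11b-positive cells from 6 or more mice, so replicate error here is between pools of mice. The transgene is not restricted to microglia, CD11b is also on the surface of other myeloid cells, and trypsin and hyaluronidase were used to dissociate the cords before the sort. Values are log2 signals per probe set as the authors deposited them. Genotypes were compared with limma, in which the variance of a probe set is moderated by all others. A gene is called where its p, adjusted by Benjamini-Hochberg over 18193 genes, is under 0.05. A signal depends on the probe as well as on the mRNA, so levels are not compared between genes. In a sorted pool a smaller share of cells of a type and less RNA per cell cannot be told apart.

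Over all genes, 745 (4.09%) were called higher and 461 (2.53%) lower in SOD1 G93A microglia, with a median log2 fold change of 0.02. Arrays correlated with each other at 0.979 or more, and none was a copy of another. Both arrays numbered 1 stood apart from the other 4 on the second principal component. Of 11 microglial markers, *Fcrls* was called higher and *Sall1* lower, and *Cx3cr1*, *Csf1r*, *Tmem119* and *P2ry12* all had signals above 11 with absolute log2 fold changes of 0.29 or less. The labelled cell type was thus present in every array. Of the remaining markers, none called, *Siglech* (0.52) and *Aif1* (0.34) were higher in every SOD1 G93A array than in any WT array. *Gpr34* (-0.35), *Itgam* (-0.02) and *Olfml3* (0.11) overlapped between the genotypes. Markers of astrocytes (4 of 9), neutrophils and monocytes (4 of 9), neurones (4 of 10) and oligodendrocytes (2 of 9) were called lower in SOD1 G93A arrays. In the other direction 1 neurone marker, *Eno2* (0.72, adjusted p = 0.0283), and 1 of 10 endothelial and mural cell markers, *Flt1* (0.87, adjusted p = 0.0112), were called higher.

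Several targets of the response carry known DNA elements near their start sites, and the promoters of the genes were read to show which of them do. RefSeq promoters (GRCm38.p6, from 250 bases before to 50 bases after the start site) were found for 34 of the 38 genes, and not for *Atf6*, *Derl1*, *Hyou1* and *Manf*. The ER stress element (ERSE), which ATF6 and XBP1 bind together with NF-Y, was searched on both strands as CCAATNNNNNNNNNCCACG. It was found in 9 of these 34 genes, and in 37 of all 27025 genes with a promoter (0.137%). The 10 matches follow in the direction in which the element reads, with the letters searched for in capitals.
Calr: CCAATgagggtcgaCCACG
Canx: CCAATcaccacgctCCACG
Creld2: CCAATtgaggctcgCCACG
Dnajc3: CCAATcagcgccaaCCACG
Ero1lb: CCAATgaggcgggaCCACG
Hsp90b1: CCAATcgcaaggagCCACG
Hsp90b1: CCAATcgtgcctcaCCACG
Hspa5: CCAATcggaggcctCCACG
Pdia6: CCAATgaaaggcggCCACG
Syvn1: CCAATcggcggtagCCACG
The 9 bases in the middle, which the search left free, differed between all 10 matches, and *Hsp90b1* held 2 of them. The second form of the element (ERSE-II) was found in 2 genes, against 12 of all genes (0.0444%).
Dnajb11: ATTGGcCCACG
Herpud1: ATTGGgCCACG
The element of the PERK branch to which ATF4 binds with C/EBP proteins (CARE, TGATGNAA) was found in 4 genes, and in 4.51% of all genes. Of these, *Asns*, *Chac1* and *Trib3* are textbook targets of ATF4.
Asns: TGATGaAA
Chac1: TGATGcAA
Herpud1: TGATGcAA
Trib3: TGATGtAA
The core of the element bound by XBP1 alone (UPRE, TGACGTGG) was found in none of the 34 genes and in 0.714% of all genes. The letters searched overlap, since ERSE and ERSE-II share CCACG, whose complement read backwards ends UPRE, and ERSE-II starts with CCAAT as the other strand reads it. The letters of ERSE-II are those in capitals in its 2 matches, with 1 free base between them. A match gives the letters in the window and not the binding of a factor.

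Whole windows are shown for 4 genes as examples, of which *Pdia6* and *Creld2* were called and *Hspa5* and *Herpud1* were not. They are the called gene with the largest difference (*Pdia6*, chr12:17266339-17266638, plus strand) and a called gene that encodes a secreted ER stress protein (*Creld2*, chr15:88819396-88819695, plus strand). The others are the central chaperone of the response (*Hspa5*, chr2:34771840-34772139, plus strand) and the ERAD gene with both ERSE-II and CARE (*Herpud1*, chr8:94386179-94386478, plus strand). Each is given 5′ to 3′ along its gene, and capitals mark the fixed letters of the matches.
Pdia6 promoter: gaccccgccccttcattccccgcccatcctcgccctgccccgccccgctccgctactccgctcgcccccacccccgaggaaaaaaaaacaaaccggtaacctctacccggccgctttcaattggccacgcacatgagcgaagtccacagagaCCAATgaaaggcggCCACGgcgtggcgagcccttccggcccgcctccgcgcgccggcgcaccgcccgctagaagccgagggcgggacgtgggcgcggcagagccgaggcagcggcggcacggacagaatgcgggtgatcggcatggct
Creld2 promoter: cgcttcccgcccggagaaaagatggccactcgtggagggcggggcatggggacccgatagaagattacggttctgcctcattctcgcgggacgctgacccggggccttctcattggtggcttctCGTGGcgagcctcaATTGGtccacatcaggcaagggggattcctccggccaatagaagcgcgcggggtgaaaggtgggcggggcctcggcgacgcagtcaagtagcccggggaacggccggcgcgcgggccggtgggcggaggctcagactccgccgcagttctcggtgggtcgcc
Hspa5 promoter: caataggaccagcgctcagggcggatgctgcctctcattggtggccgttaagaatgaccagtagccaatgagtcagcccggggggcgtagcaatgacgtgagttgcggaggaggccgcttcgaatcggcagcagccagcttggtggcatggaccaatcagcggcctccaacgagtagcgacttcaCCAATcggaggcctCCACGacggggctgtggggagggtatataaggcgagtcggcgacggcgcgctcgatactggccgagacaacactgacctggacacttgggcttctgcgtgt
Herpud1 promoter: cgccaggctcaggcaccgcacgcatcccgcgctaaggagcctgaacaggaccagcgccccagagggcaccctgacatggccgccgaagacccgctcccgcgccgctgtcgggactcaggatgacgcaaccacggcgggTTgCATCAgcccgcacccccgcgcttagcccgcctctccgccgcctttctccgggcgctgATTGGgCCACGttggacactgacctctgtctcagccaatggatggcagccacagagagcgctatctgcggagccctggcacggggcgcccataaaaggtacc
In *Creld2* the element reads along the opposite strand, and so does the CARE of *Herpud1*. Counted from the start site, the first base of the ERSE lay at -98 in *Pdia6*, -126 in *Creld2* and -65 in *Hspa5*, and the ERSE-II of *Herpud1* at -52.

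**Figure D1:**
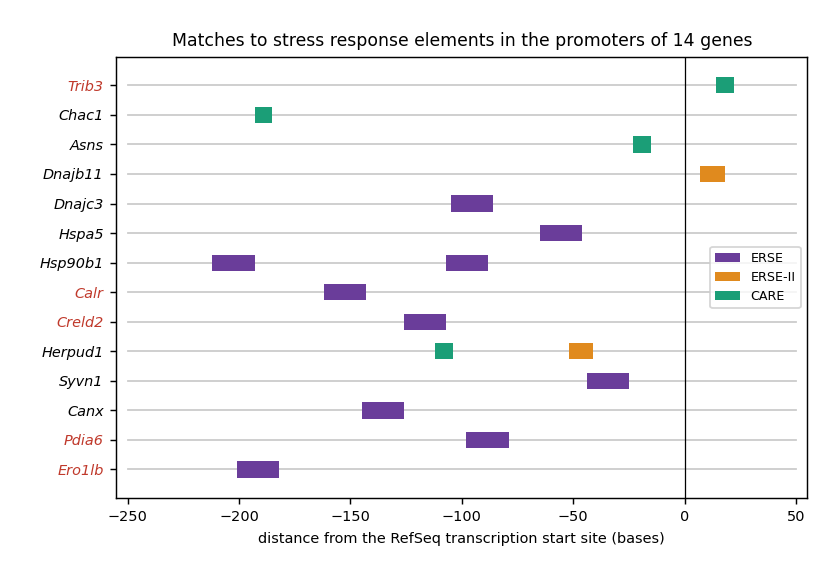
Matches to ERSE, ERSE-II and CARE in the promoters of the 14 genes with any match. The x axis is the distance in bases from the RefSeq start site, each bar spans a match, and gene names in red are those called higher in SOD1 G93A microglia. All 10 ERSE matches lie before the start site, between -212 and -44 at their first base.

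Of the 38 genes, 9 (23.7%) were called higher in SOD1 G93A microglia and 0 lower, against 4.09% higher and 2.53% lower (6.63% in either direction) among all genes. All 38 had a mean log2 signal of at least 5, and 5.59% of all genes that bright were called higher. At a mean signal of at least 7, 8 of the 33 genes left were called higher, against 8.64% of all genes. At an unadjusted p under 0.05 limma gave 17 of the 38 genes higher and 1 lower, against 12.7% and 8.86% of all genes (21.6% in either direction). The methods' t-test gave 12 higher and 0 lower at that threshold, against 9.49% and 5.29% of all genes (14.8% in either direction). Log2 fold changes were positive for 31 genes and negative for 7, with a median of 0.24. Over all 18193 genes they were positive for 9890 and negative for 8303. All 3 SOD1 G93A arrays lay above all 3 WT arrays for 18 of the 38 genes and below them for 1, while 16.6% and 10.9% of all genes did so (27.5% in either direction). Of the calls, 4 were among the 9 genes of the ATF6 branch and its targets and 4 among the 8 other ER folding enzymes. The PERK-ATF4 branch gave 1 call of 7, the pseudokinase gene *Trib3*, which had the lowest adjusted p of the 38 genes, and the IRE1-XBP1 branch and ERAD gave 0 of 7 each. The median log2 fold change was 0.47 for the other folding enzymes, 0.30 for the ATF6 branch, 0.23 for ERAD, 0.10 for the IRE1-XBP1 branch and -0.01 for the PERK-ATF4 branch. None of these differences between branches was tested.

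**Figure D2:**
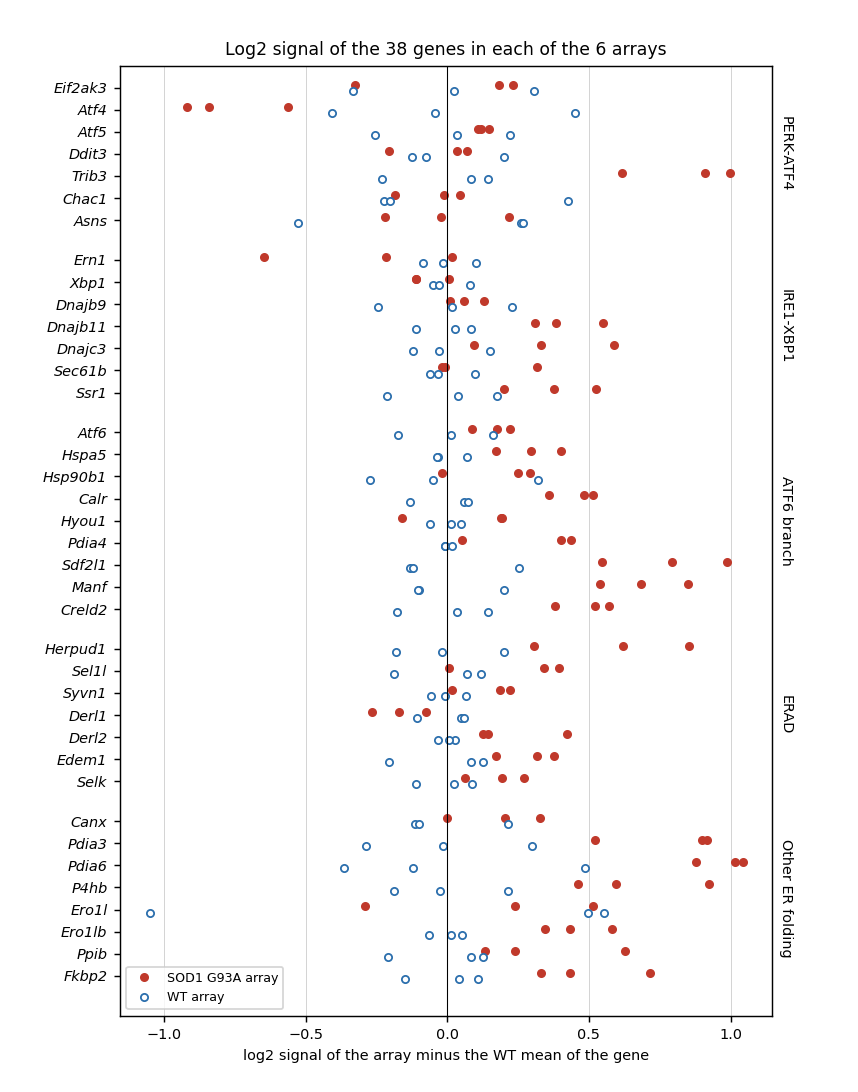
Log2 signal of each gene in each array minus the mean of the 3 WT arrays of that gene (x axis), with genes grouped by branch (y axis), SOD1 G93A arrays as filled red points and WT arrays as open blue points. The SOD1 G93A points lie right of all WT points for 18 of the 38 genes, and left of them for *Atf4*.

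The number of calls depended on the arrays. It was 8 without SOD1 G93A replicate 1, 2 without replicate 2 and 1 without replicate 3, and 5, 2 and 2 without WT replicates 1, 2 and 3, with 1 of the last 2, *Atf4*, called lower. The median over the genes stayed between 0.19 and 0.31 in these fits. The methods' t-test left 0 calls after Benjamini-Hochberg adjustment, as it did over all genes. For *Gapdh*, the log2 signal of the 3′ probe set minus that of the 5′ one, smaller where copied RNA is longer, was 4.63, 4.28 and 3.47 in the SOD1 G93A arrays, against 5.01, 4.79 and 4.87 in the WT arrays. It was lower in every SOD1 G93A array, by 0.77 on average (p = 0.1 in an exact permutation test, two-sided, and no smaller p is possible with 3 arrays against 3). With this measure as a covariate 1 of the 38 genes, *Trib3*, passed, the median was 0.18, and 0.379% of all genes were called higher. As the *Gapdh* measure separates the genotypes in these arrays, the 2 cannot be told apart with it. The same measure of actin was 3.36, 2.75 and 1.92 in the SOD1 G93A arrays, against 3.88, 2.90 and 3.49 in the WT arrays. It overlapped between the genotypes, with a mean difference of -0.75 (p = 0.2 in the exact permutation test, two-sided).

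Plasma cells are rich in ER chaperones, so markers of plasma cells and B cells were read beside these results. None of 11 was called, their log2 fold changes had a median of -0.02, and their summed signal was 9.56 to 9.69 on the log2 scale in SOD1 G93A arrays and 9.59 to 9.64 in WT arrays. *Pou2af1* averaged 2.76 in SOD1 G93A arrays and 2.65 in WT arrays, and *Igj* 3.57 and 4.42. Log2 fold changes were positive for 5 of the 11 and negative for 6, and *Derl3* had 0.27 and *Prdm1* 0.25, both with overlap. A single gene of the list, *Derl3*, is also in a pathway list used below. The astrocyte markers' summed signal was 10.1 to 10.9 in SOD1 G93A arrays and 11.3 to 12.3 in WT arrays, and that of neutrophils and monocytes 15.2 to 15.3 and 15.4 to 15.8. The part of the falls in these lists in the results on ER genes was not tested.

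Among the folding enzymes, the protein disulfide isomerases form and rearrange disulfide bonds in proteins entering the ER. Of the 4 read as such among the 38 genes, 3 were called higher, against 4.09% of all genes. *Pdia6* had the largest difference of all 38 genes, with log2 signals of 11.37, 11.51 and 11.54 in SOD1 G93A arrays, against 10.13, 10.98 and 10.37 in WT arrays. The groups did not overlap, and WT replicate 2 lay closest to the SOD1 G93A arrays. The log2 fold change was 0.98 (standard error, SE, of 0.20, 1.97-fold, adjusted p = 0.0237 from limma). A second probe set, with a mean signal of 5.49, gave 0.33 and did not pass, and the mean of both gave 0.66 (adjusted p = 0.0602). The call of *Pdia6* was lost without SOD1 G93A replicate 2 (adjusted p = 0.0904), SOD1 G93A replicate 3 (0.0924) or WT replicate 3 (0.0959).

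*Pdia3*, an isomerase that works on glycoproteins held by calnexin and calreticulin, had 10.02, 10.40 and 10.42 in SOD1 G93A arrays, against 9.80, 9.49 and 9.21 in WT arrays. SOD1 G93A replicate 1 was the lowest of its group and still above every WT array. The log2 fold change was 0.78 (SE 0.17, adjusted p = 0.0327). It passed without SOD1 G93A replicate 1 or WT replicate 1, and not without any of the other 4 arrays (adjusted p from 0.0965 to 0.127). *P4hb*, which encodes the founding isomerase PDI, had 12.13, 12.26 and 12.59 in SOD1 G93A arrays, against 11.48, 11.88 and 11.64 in WT arrays. Every SOD1 G93A array was above every WT array, for a log2 fold change of 0.66 (SE 0.15, adjusted p = 0.0401). Of the fits that leave out 1 array, only that without SOD1 G93A replicate 1 kept the call (adjusted p = 0.0327), and the others gave 0.0549 to 0.134. The isomerase *Pdia4*, listed with the ATF6 targets, had a log2 fold change of 0.30 (adjusted p = 0.214), with SOD1 G93A replicate 2 at 6.89 close to the WT arrays at 6.83 to 6.85.

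Of the 2 oxidases that feed disulfide bonds to these enzymes, *Ero1lb* was called. It had 9.51, 9.75 and 9.60 in SOD1 G93A arrays, against 9.10, 9.21 and 9.17 in WT arrays. The arrays of each genotype lay close together and apart from the other genotype, for a log2 fold change of 0.45 (SE 0.11, adjusted p = 0.0422). A second probe set of *Ero1lb*, with a mean signal of 5.84, gave 1.12 (over all probe sets, adjusted p = 0.0237). With its brightest probe set the call was lost without any 1 array other than SOD1 G93A replicate 1 (adjusted p from 0.0888 to 0.141). *Ero1l*, the form induced by low oxygen, had 7.95, 8.48 and 8.76 in SOD1 G93A arrays, against 7.19, 8.74 and 8.80 in WT arrays. It was lowest in the array numbered 1 of either genotype and overlapped between the genotypes, with a log2 fold change of 0.16 (95% confidence interval -0.75 to 1.06).

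The remaining folding enzymes did not pass. *Fkbp2*, a prolyl isomerase of the ER, had 10.74, 10.35 and 10.46 in SOD1 G93A arrays, against 10.13, 9.87 and 10.06 in WT arrays, with no overlap and a log2 fold change of 0.49 (adjusted p = 0.0633). *Ppib*, which encodes the prolyl isomerase cyclophilin B, had 0.33 (adjusted p = 0.26) from its brightest probe set, with suffix x_at, which marks a probe set that can bind related sequences. Its other probe set, without a suffix, was called at 0.75 (over all probe sets, adjusted p = 0.0215), with 12.42, 12.11 and 12.59 in SOD1 G93A arrays, against 11.55, 11.67 and 11.66 in WT arrays. *Canx*, which encodes the lectin chaperone calnexin, had 0.18 (adjusted p = 0.518) from its brightest probe set and 0.54 (adjusted p = 0.0261 over all probe sets) from another.

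Of the ATF6 branch, all 9 genes had positive log2 fold changes and 4 were called. *Sdf2l1*, a partner of ER co-chaperones that is induced by ER stress, had 8.50, 8.06 and 8.31 in SOD1 G93A arrays, against 7.77, 7.38 and 7.39 in WT arrays. The groups did not overlap, for a log2 fold change of 0.78 (SE 0.15, adjusted p = 0.0224). *Manf*, a secreted protein of the stressed ER that protects cells, had 10.07, 9.76 and 9.90 in SOD1 G93A arrays, against 9.12, 9.42 and 9.12 in WT arrays. Its lowest SOD1 G93A array was above its highest WT array, and the log2 fold change was 0.69 (SE 0.13, adjusted p = 0.0191). *Sdf2l1* failed the test without SOD1 G93A replicate 3 (0.0837), WT replicate 2 (0.0816) or WT replicate 3 (0.0909), and *Manf* without SOD1 G93A replicate 3 (0.0739) or WT replicate 3 (0.0808).

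*Creld2*, a disulfide-rich protein secreted on ER stress, had 10.01, 10.06 and 9.87 in SOD1 G93A arrays, against 9.31, 9.63 and 9.52 in WT arrays. The genotypes did not overlap, but the gap between them was smaller than the range of the WT arrays, with a log2 fold change of 0.49 (SE 0.12, adjusted p = 0.0463). *Calr*, which encodes the calcium-binding lectin chaperone calreticulin, had 13.06, 12.90 and 13.02 in SOD1 G93A arrays, against 12.60, 12.61 and 12.41 in WT arrays. The groups did not overlap, for a log2 fold change of 0.45 (SE 0.11, adjusted p = 0.0444). Neither *Creld2* nor *Calr* passed once any 1 array was left out, with adjusted p from 0.0718 to 0.15 and from 0.0615 to 0.148. The other 2 probe sets of *Calr* were called too, at 0.50 and 0.59 (over all probe sets, adjusted p = 0.0424 and 0.0202).

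*Hspa5* encodes BiP, the ER chaperone that holds the 3 sensors inactive and is the usual readout of the response. It had 13.61, 13.73 and 13.84 in SOD1 G93A arrays, against 13.41, 13.51 and 13.40 in WT arrays. All SOD1 G93A arrays were above all WT arrays, but the log2 fold change of 0.29 (SE 0.11, adjusted p = 0.152) did not pass. Its other probe sets gave 0.18 and -0.34, neither called. The negative value came from an x_at probe set whose SOD1 G93A arrays all lay below the WT arrays. Signals above 13 are near the top of the arrays' range (14.51 to 14.59), while the other probe sets of *Hspa5* averaged 11.50 and 10.71. Whether the range affected the difference was not tested.

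*Atf6* itself had 8.14, 8.09 and 8.0015 in SOD1 G93A arrays, against 8.08, 7.93 and 7.74 in WT arrays, with overlap between the genotypes and a log2 fold change of 0.16 (adjusted p = 0.498). Another probe set of *Atf6* gave 0.44 (adjusted p = 0.0521 over all probe sets), with 7.99, 8.11 and 8.23 in SOD1 G93A arrays, against 7.65, 7.66 and 7.70 in WT arrays. The remaining chaperones of the branch overlapped between the genotypes. *Hsp90b1*, which encodes the chaperone GRP94, had 0.17 (adjusted p = 0.611), and *Hyou1*, an ER chaperone that releases nucleotide from BiP, had 0.07 (adjusted p = 0.8).

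**Figure D3:**
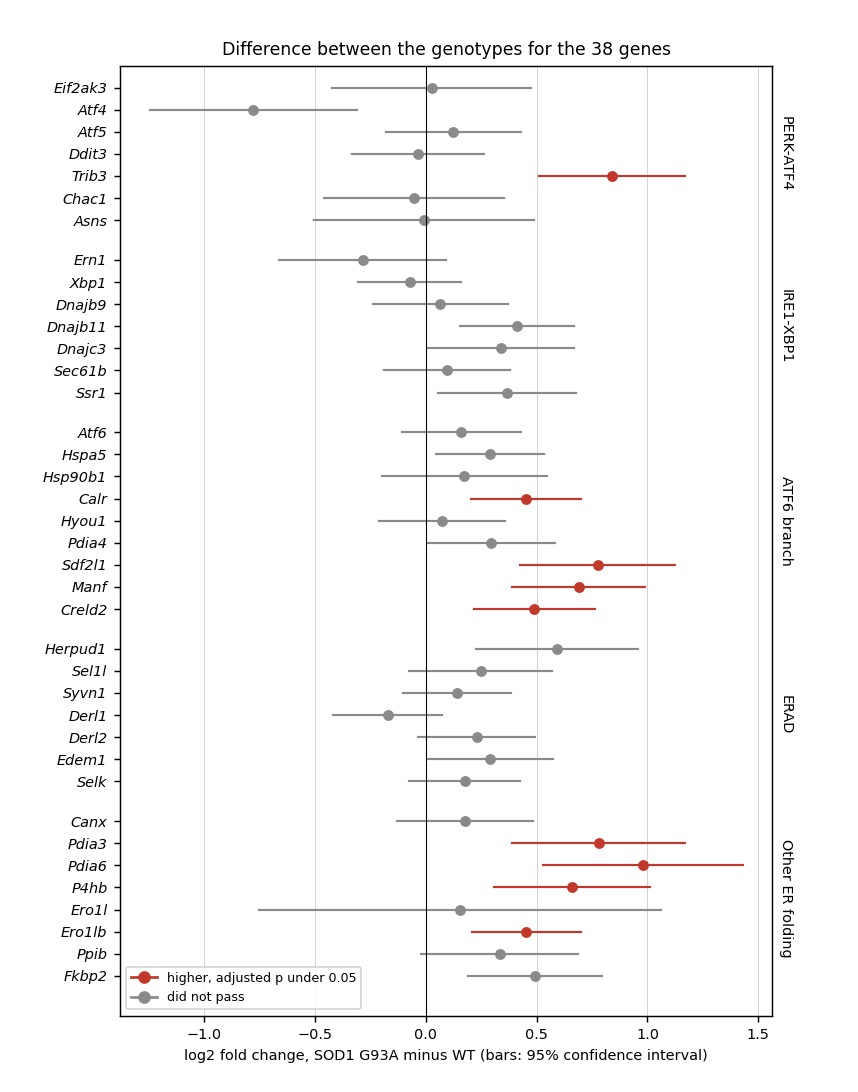
Log2 fold change of each gene (x axis, SOD1 G93A minus WT) with its 95% confidence interval from limma, with genes grouped by branch (y axis), red for genes called higher and grey for those that did not pass. The 9 called genes lie between 0.45 and 0.98, and 8 of them are in the ATF6 branch or among the other folding enzymes.

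In the PERK-ATF4 branch *Trib3*, a pseudokinase induced by ATF4 and CHOP, was the only gene of the 7 to be called. It had 7.25, 7.16 and 6.86 in SOD1 G93A arrays, against 6.39, 6.02 and 6.33 in WT arrays. The genotypes did not overlap, for a log2 fold change of 0.84 (SE 0.15, adjusted p = 0.0135). This probe set has the suffix x_at, and the other of *Trib3* gave 0.23 (over all probe sets, adjusted p = 0.331). Its call was lost without SOD1 G93A replicate 2 (adjusted p = 0.0629) or WT replicate 2 (0.0501).

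*Atf4* had 11.36, 11.01 and 11.08 in SOD1 G93A arrays, against 12.38, 11.88 and 11.52 in WT arrays. It was the only gene of the 38 with every SOD1 G93A array below every WT array, with a log2 fold change of -0.78 (SE 0.21, adjusted p = 0.0598). Its brightest probe set has the suffix x_at, and without suffixed probe sets the direction turned, to 0.11 (adjusted p = 0.757), with 11.79, 11.28 and 11.38 in SOD1 G93A arrays, against 11.50, 11.21 and 11.42 in WT arrays. *Eif2ak3*, which encodes PERK, had 7.73, 8.23 and 8.28 in SOD1 G93A arrays, against 7.72, 8.36 and 8.08 in WT arrays, a log2 fold change of 0.03 (95% confidence interval -0.42 to 0.48). In both genotypes the array numbered 1 was the lowest.

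*Ddit3*, which encodes the pro-apoptotic factor CHOP, had 10.24, 10.28 and 10.00 in SOD1 G93A arrays, against 10.41, 10.08 and 10.13 in WT arrays, with overlap and a log2 fold change of -0.03 (95% confidence interval -0.33 to 0.26). Its other probe set read otherwise, with 10.25, 9.76 and 10.02 in SOD1 G93A arrays, against 9.52, 9.29 and 9.58 in WT arrays. There the genotypes did not overlap, for 0.54 (adjusted p = 0.0768 over all probe sets). *Atf5*, a factor related to ATF4, had 0.13, *Chac1*, which degrades glutathione and is a target of ATF4, had -0.05, and the amino acid synthesis gene *Asns* had -0.01, with adjusted p of 0.661, 0.912 and 0.99. All 3 overlapped between the genotypes.

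None of the 7 genes of the IRE1-XBP1 branch was called. *Ern1*, which encodes IRE1 alpha, had 9.52, 10.19 and 9.95 in SOD1 G93A arrays, against 10.27, 10.15 and 10.09 in WT arrays. SOD1 G93A replicate 1 was the lowest of the 6 and the genotypes overlapped, with a log2 fold change of -0.28 (adjusted p = 0.377). *Xbp1* had 12.01, 11.90 and 11.90 in SOD1 G93A arrays, against 11.96, 12.09 and 11.98 in WT arrays, which overlapped with a log2 fold change of -0.07 (95% confidence interval -0.30 to 0.16). The other probe sets of *Xbp1* gave 0.43, 0.01 and -0.22, none called.

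Genes of the other lists can be targets of XBP1 too, so only the 5 listed in this branch are meant here. Of these 5 the BiP co-chaperone *Dnajb11* had the largest difference. It had 9.60, 9.68 and 9.84 in SOD1 G93A arrays, against 9.18, 9.38 and 9.32 in WT arrays. The groups did not overlap, and the log2 fold change of 0.41 (SE 0.11) had an adjusted p of 0.0656. *Ssr1*, a subunit of the translocon-associated protein complex, had 0.37 and did not overlap (adjusted p = 0.157). Its other probe sets gave 0.01, -0.09 and -0.004, all with overlap. *Dnajc3*, which encodes the co-chaperone p58IPK, had 0.34, *Sec61b*, a subunit of the translocon, had 0.10, and the co-chaperone *Dnajb9* had 0.07, with adjusted p of 0.219, 0.727 and 0.835. Other probe sets of *Dnajc3* gave -0.003, 0.14, 0.23 and, at a mean signal of 2.75, -0.27, none called.

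ERAD gave no call either, although 6 of its 7 genes had positive log2 fold changes. *Herpud1*, a membrane protein that assembles the ERAD complex, had 9.93, 10.24 and 10.48 in SOD1 G93A arrays, against 9.44, 9.82 and 9.61 in WT arrays. The genotypes did not overlap, with a log2 fold change of 0.59 (SE 0.16, adjusted p = 0.0643). It passed without SOD1 G93A replicate 1 (0.74, adjusted p = 0.028). *Edem1*, a lectin that delivers glycoproteins to ERAD, had 0.29 from its brightest probe set (adjusted p = 0.222). Another probe set of *Edem1* of nearly the same signal was called, with 9.95, 10.30 and 10.53 in SOD1 G93A arrays, against 9.22, 9.57 and 9.47 in WT arrays, and a log2 fold change of 0.84 (adjusted p = 0.0265 over all probe sets).

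The other ERAD genes had small differences from their brightest probe sets. *Sel1l*, the adaptor of the ERAD ubiquitin ligase, had 0.25, and *Syvn1*, the ligase HRD1 itself, had 0.14. *Selk*, a selenoprotein bound to the derlins, had 0.18, and all of these overlapped between the genotypes. Other probe sets of *Sel1l* gave 0.31 and 0.39 without overlap and 0.07 and 0.36 with overlap. Those of *Syvn1* (0.23, without overlap) and *Selk* (0.51, with overlap) were not called either. *Derl2*, of the derlin family, had 0.23 without overlap (adjusted p = 0.295), and its other probe set gave -0.03 with overlap. *Derl1* read differently between its probe sets, with -0.17 (adjusted p = 0.42) from the brightest, which has the suffix s_at, and 0.53 (adjusted p = 0.0386 over all probe sets) from 1 of the other 3.

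The 38 genes had 90 probe sets in all, of which 52 were not used above as the main value, and 10 genes had a single probe set. Of the 52, 34 had the sign of their gene's brightest probe set and 18 the opposite sign. Over all probe sets 4.64% were called in either direction. Of the 52, 7 were called higher, those of *Calr* (2), *Canx*, *Derl1*, *Edem1*, *Ero1lb* and *Ppib*, and 0 lower. Thus *Canx*, *Derl1*, *Edem1* and *Ppib* were called by another probe set and not by their brightest one. Adjusted over all probe sets rather than over genes, 6 of the 9 called genes passed, and *Calr* (0.0537), *Creld2* (0.0561) and *Ero1lb* (0.0512) did not with their brightest probe set.

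**Figure D4:**
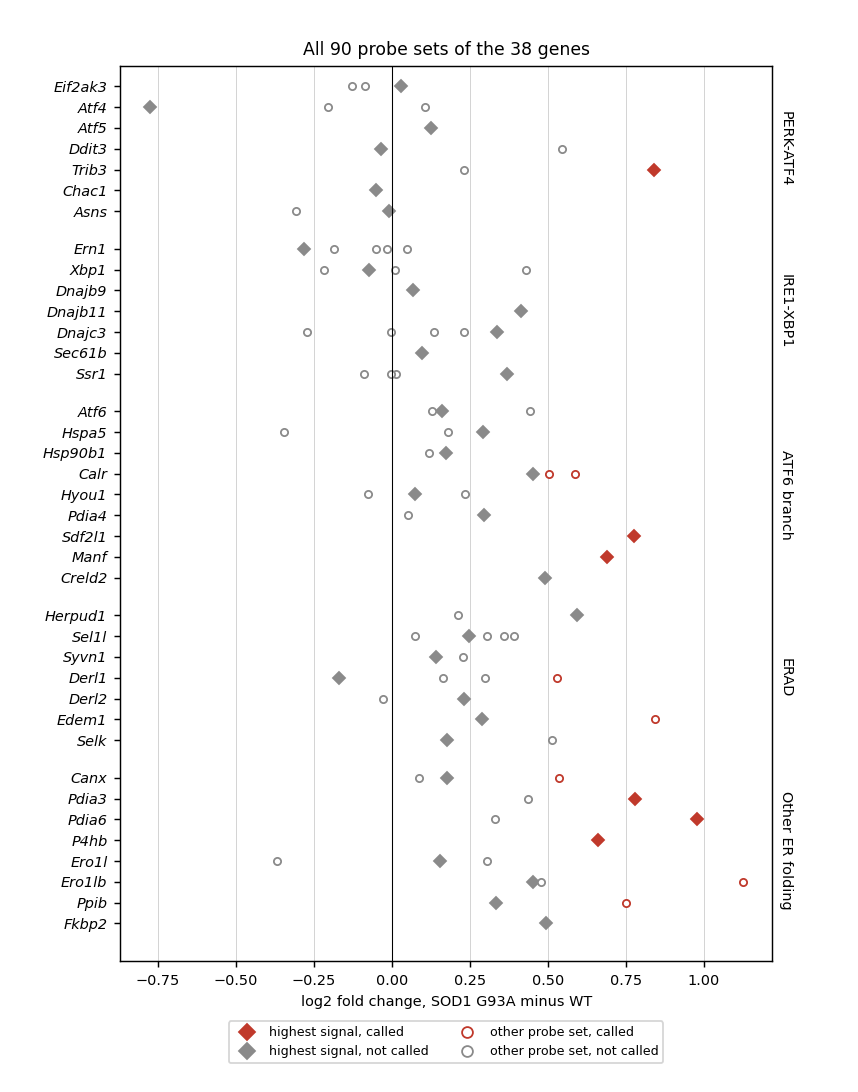
Log2 fold change (x axis, SOD1 G93A minus WT) of all 90 probe sets of the 38 genes (y axis, by branch). Diamonds are the probe set with the highest signal, open circles the others, and red marks those called when p is adjusted over all probe sets, 6 diamonds and 7 circles.

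Split by the promoter search, the 9 genes with an ERSE included 4 called (*Calr*, *Creld2*, *Ero1lb* and *Pdia6*) and had a median log2 fold change of 0.34, with all 9 positive and a range of 0.14 to 0.98. The 25 genes with a promoter and no ERSE included 4 called (*P4hb*, *Pdia3*, *Sdf2l1* and *Trib3*) and had a median of 0.23, with a range of -0.78 to 0.84. The difference between the split groups was not tested. Both genes with ERSE-II, *Dnajb11* and *Herpud1*, had SOD1 G93A arrays above all WT arrays and did not pass. Of the 4 genes with CARE, only *Trib3* was called.

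The further genes of the pathway, taken from lists of the same branches, were 167 measured of 176 listed. Of these 29 (17.4%) were called higher and 1 (0.599%) lower, against 4.09% and 2.53% of all genes. Their median log2 fold change was 0.23. All SOD1 G93A arrays lay above all WT arrays for 76 of them and below for 5, against 16.6% and 10.9% of all genes. The largest share was among genes of the IRE1-XBP1 list, which holds the translocon and the enzymes that cut and glycosylate proteins as they enter the ER, with 12 of 33 higher and 0 lower. The differences between lists were not tested.

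*Ssr4*, another subunit of the translocon-associated protein complex, averaged 11.33 ± 0.16 (SD, n = 3) in SOD1 G93A microglia and 9.90 ± 0.12 (SD, n = 3) in WT microglia, a log2 fold change of 1.43 (adjusted p = 0.000952 from limma). It was the largest difference among all these lists. Of the oligosaccharyltransferase, which adds N-linked sugar chains to nascent proteins, 5 of 7 listed subunits were called higher, against 4.09% of all genes. *Rpn2* (0.98) and *Ddost* (0.89) stood among the 5 largest of the list, and *Rpn1* (0.49), *Ostc* (0.57) and *Dad1* (0.47) are named here after their values were seen. The catalytic subunits *Stt3a* (0.04) and *Stt3b* (0.29) did not pass. *Ssr2* (0.68) and the RNA ligase gene *Rtcb* (0.68), whose product joins the exons of *Xbp1*, completed the named genes of that list. *Ssr4*, *Rpn2* and *Ddost* passed in all 6 fits that left out 1 array, and *Ssr2* and *Rtcb* in 2 each.

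The further PERK-ATF4 list gave 7 calls of 43, all higher, against 4.09% of all genes. *Sqstm1*, which encodes the autophagy receptor p62, had 9.86 ± 0.27 (SD, n = 3) in SOD1 G93A microglia and 8.67 ± 0.13 (SD, n = 3) in WT microglia, a log2 fold change of 1.19 (adjusted p = 0.00374). *Atf3*, a stress-induced transcription factor, had 0.80, *Ppp1r15a*, which encodes the eIF2 alpha phosphatase subunit GADD34, had 0.62, and the aminoacyl-tRNA synthetase genes *Eprs* and *Sars* had 0.71 and 0.61. In the 6 fits that left out 1 array, *Sqstm1* passed in all 6, *Atf3* and *Eprs* in 2 each and *Sars* in 1. *Ppp1r15a* did not pass once any 1 array was left out.

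Of the further folding genes 5 of 34 were called higher and 0 lower, against 4.09% and 2.53% of all genes. *Prdx4*, the peroxidase that removes hydrogen peroxide made in disulfide formation, had 9.50 ± 0.13 (SD, n = 3) in SOD1 G93A microglia and 8.11 ± 0.12 (SD, n = 3) in WT microglia, a log2 fold change of 1.39 (adjusted p = 0.000952). The thioredoxin family genes *Txndc12* (0.75) and *Txndc5* (0.53), the glucosidase subunit gene *Prkcsh* (0.70) and the calcium-binding *Sdf4* (1.14) were the other calls, although *Sdf4* turned to -0.19 without suffixed probe sets. The further ATF6 list gave 3 of 23, *Nucb1* (0.84), which holds ERSE-II in its promoter, *Creb3l2* (0.72) and *Nucb2* (0.52). The further ERAD list gave 2 higher of 34 (5.88%), *Erlec1* (0.69) and *Rnf121* (0.47), and 1 lower (2.94%), near the shares of all genes. The gene called lower was *Fam8a1*, a partner of HRD1, with -0.61, which turned to 0.19 without suffixed probe sets. In the 6 fits that left out 1 array, *Prdx4*, *Sdf4* and *Nucb1* passed in all 6 and *Prkcsh* in 3. *Txndc5*, *Creb3l2*, *Nucb2* and *Erlec1* passed in 2 each, and *Txndc12*, *Rnf121* and *Fam8a1* in 1 each.

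**Figure D5:**
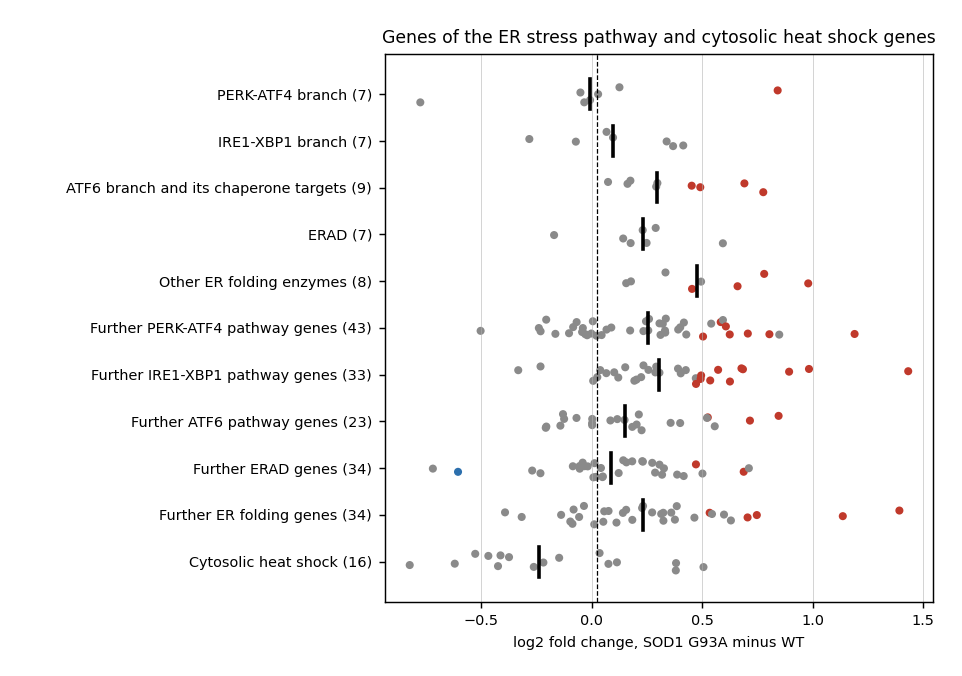
Log2 fold change (x axis, SOD1 G93A minus WT) of each gene in the branches of the 38 genes, in the further pathway lists and in a cytosolic heat shock list (y axis, number of genes in brackets). Points are genes, red if called higher and blue if called lower, black bars are list medians and the dashed line is the median of all genes, 0.02. The medians run from 0.47 for the other folding enzymes to -0.24 for the cytosolic heat shock genes.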

How the data were processed

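RNA of sorted microglia was hybridised to 3 arrays per genotype. The authors deposited log2 signals for each probe set. The submitters' notes name RMA and Partek, without a version, whereas the methods name MAS software, which was not used here. A linear model of genotype was fitted with limma 3.58.1 (lmFit and eBayes, no trend) in R 4.3.3 to 45037 probe sets, Affymetrix controls left out. A gene was measured by its brightest probe set of a single symbol, and Benjamini-Hochberg adjustment ran over 18193 genes, or over all probe sets where stated. The genes and lists were chosen with earlier results of these data known. Values in every array are given for called genes, the sensors and main effectors, and the gene of largest difference in each branch, and of each further list up to 5 called genes are named. The model was tested on simulated data. RefSeq promoters were searched in Python 3.11.15 with pandas 2.3.3.

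Alternatives were the methods' t-test with unequal variance, eBayes with trend and robust, the mean of a gene's probe sets or those without a suffix, a mean signal of at least 5 or 7, arrays centred on their medians, array weights (statmod 1.5.0), a replicate block, other thresholds and each array left out. A fit without both arrays numbered 1 and one with a covariate, the 3′ minus 5′ signal of *Gapdh*, were chosen after seeing the data. Litters were matched between the genotypes per the methods, which do not tie a litter to a pool, so no array was matched to another and p-values measure the spread between pools. The number of arrays limits the precision, and arrays have no counting depth.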

Additional observations from a re-analysis of the deposited data

How the results depend on the processing

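The 38 genes kept 9 calls with a minimum mean signal of 5 and with median-centred arrays, the same genes in both. The calls fell to 0 with the methods' t-test after adjustment. They fell to 2 at the methods' fold of 1.75 with a limma p under 0.05, unadjusted. With the *Gapdh* covariate they fell to 1, and they ran from 1 to 8 when each array was left out. With eBayes with trend and robust, *Creld2* (adjusted p = 0.0619) and *Ero1lb* (0.0608) were the 2 calls lost of 9. The replicate block gave 13 (12 higher, with *Dnajb11*, *Fkbp2* and *Herpud1* added, and 1 lower) and array weights 12 (11 and 1), and *Atf4* was the gene called lower in both, also without both arrays numbered 1 and without WT replicate 3 (0 to 1 lower with an array left out). The further genes had 29 higher calls, against 0, 8 and 3 in the first 3 settings and 7 to 23 with an array left out, and 1 lower call, against 0 in those settings and without suffixed probe sets, 2 with the block, 3 without both arrays numbered 1 and 0 to 1 with an array left out. All genes had 745 higher and 461 lower calls, against 0 and 0 with the t-test. At the methods' fold and the unadjusted limma p there were 280 and 280, and with the covariate 69 and 25. The block gave 1238 and 983, array weights 731 lower, and the fit without both arrays numbered 1 837 lower. With an array left out they ran from 255 to 719 higher and from 103 to 539 lower. The median of the PERK-ATF4 branch changed sign with an array left out (-0.14 to 0.13), that of the ATF6 branch ran from 0.24 to 0.42, and that of ERAD fell to 0.0445 with the covariate. Single genes changed sign as follows. *Eif2ak3* (0.03) had -0.0617 with the mean of all probe sets, -0.35 with the covariate and -0.14 to 0.21 with an array left out. *Ddit3* (-0.03) had 0.25 with that mean, 0.0158 with array weights, 0.0329 without both arrays numbered 1, 0.18 with the covariate and -0.0966 to 0.0667 with an array left out. *Xbp1* had 0.0375 with the mean of all probe sets, and without suffixed probe sets *Atf4* had 0.11, *Fam8a1* 0.19 and *Sdf4* -0.19. The causes were not tested.

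The replicate number served as a block in 1 alternative only. Deviations of same-numbered arrays correlated at 0.44, 0.24 and 0.0411, and SOD1 G93A replicate 3 correlated best with WT replicate 2 (0.42), so the arrays share a number and no pairing was assumed.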

Other observations

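Chaperones of the cytosol, which belong to the heat shock response and not to the ER, gave 0 calls of 16, against 6.63% of all genes. At an unadjusted limma p under 0.05 there were 3 (1 higher and 2 lower), against 21.6% of all genes in either direction. The median log2 fold change of the list was -0.24. The inducible *Hspa1b* averaged 13.07 ± 0.40 (SD, n = 3) in SOD1 G93A microglia and 13.69 ± 0.19 (SD, n = 3) in WT microglia, a log2 fold change of -0.62 (adjusted p = 0.101). The small heat shock protein gene *Cryab*, which oligodendrocytes and astrocytes also express, had -0.82 (adjusted p = 0.0988), and the Hsp110 family gene *Hspa4* had 0.51 (adjusted p = 0.0768). The median deviation of the list from the WT mean was -0.46, -0.14 and -0.13 in the 3 SOD1 G93A arrays, and -0.29, 0.14 and 0.13 in the 3 WT arrays, lowest in the array numbered 1 of either genotype. The difference between this list and the ER genes was not tested.

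Beyond the 38 genes, 11 genes with an ERSE in their promoter were measured, with a median log2 fold change of 0.04. Of these 1 was called, against 6.63% of all genes in either direction. It was *Adcy3*, an adenylyl cyclase gene, higher by 0.74 (adjusted p = 0.0155). The ER glycosylation gene *Alg12* (0.19) and the derlin gene *Derl3* (0.27) did not pass.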
